A study of Mus musculus with 32 samples.

Results

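The genes described here are 9 genes shared by endothelial cells and haematopoietic stem cells (HSCs): Tek, Tie1, Eng, Robo4, Esam, Procr, Flt1, Emcn and Cdh5. They were picked by name, without a threshold on any measured value but with earlier results of these data known. The lists of other genes used below were chosen in the same way. Counts of these genes set beside the share of all genes are therefore descriptions. Each of the 9 was found once by its Entrez identifier among the 27179 genes counted. RNA was sequenced from sorted LSK cells, the bone marrow fraction that holds HSCs and multipotent progenitors, and from sorted progenitor cells of adult C57BL/6 mice, to ask what loss of HBO1 does in these cells. HBO1, encoded by Kat7, is a histone lysine acetyltransferase. By the labels, each mouse gave an LSK library and a progenitor library. With 4 mice in each of 4 mouse groups, there were 8 library groups of 4. CreER controls carried Hbo1fl/+ with the RosaCreERT2 recombinase and CreER knockouts carried Hbo1fl/fl with it, and both were given tamoxifen. Mx1Cre controls carried Hbo1fl/+ with Mx1-Cre and Mx1Cre knockouts carried Hbo1fl/fl with it, and both were given polyIC, which induces interferon. By the sample titles and the design text all controls had thus lost 1 allele of Hbo1, whereas the treatment text calls the controls wild type. RosaCreERT2 is driven from the widely active Rosa26 locus and Mx1-Cre from an interferon-responsive promoter. Recombinase, inducing agent and mice all differ between the CreER and Mx1Cre groups, so these cannot be told apart in any comparison between them. The gate that defined the progenitor cells is not given in the sources used here.

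Tek encodes TIE2, the receptor tyrosine kinase that binds angiopoietins, and Tie1 encodes the related receptor that pairs with TIE2 and modulates it. Angiopoietin 1 activates TIE2, which in vessels keeps the endothelium quiescent and in bone marrow is known as a receptor of quiescent HSCs. The other genes encode the co-receptor endoglin (Eng), which presents BMP9 and TGF-beta family ligands, the guidance receptor ROBO4, the junctional adhesion molecule ESAM, the protein C receptor EPCR (Procr), the VEGF receptor VEGFR1 (Flt1), the sialomucin endomucin (Emcn) and VE-cadherin (Cdh5). Several of them, among them ESAM, EPCR, endoglin and endomucin, are used as surface markers of HSCs.

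On the mm10 assembly (GRCm38), Tek spans chromosome 4 from 94739086 to 94874976 and Tie1 spans chromosome 4 from 118471191 to 118489849. Eng lies on chromosome 2 from 32646595 to 32682669, where 61 of its 4048 annotated exon bases overlap Fpgs on the other strand, and Procr lies on chromosome 2 from 155751125 to 155755478. Robo4, at 37401902 to 37414023, and Esam, at 37528089 to 37538319, both lie on chromosome 9. Flt1 spans chromosome 5 from 147561604 to 147726438, Emcn chromosome 3 from 137341062 to 137431069 and Cdh5 chromosome 8 from 104101613 to 104144504. Counts were made over whole genes, so the receptor form and the soluble form of Flt1 are not separated.

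RefSeq (GRCm38.p6) upstream windows were matched for 7 of the 9 genes. The windows of Tie1 and Eng are printed because both genes fell in the Mx1Cre knockouts of both populations. In Tek, Robo4, Procr, Flt1 and Emcn the window reached into the annotated span of the gene, and it is not printed. The lines for Tie1 and Eng give the 250 bases before the annotated start, 5′ to 3′ on the gene's own strand. Capitals mark GGAAG, or CTTCC where it reads on the other strand, the core shared by the sites of many ETS factors, which include regulators of endothelial and blood genes.
Tie1, chr4:118489850-118490099, minus strand: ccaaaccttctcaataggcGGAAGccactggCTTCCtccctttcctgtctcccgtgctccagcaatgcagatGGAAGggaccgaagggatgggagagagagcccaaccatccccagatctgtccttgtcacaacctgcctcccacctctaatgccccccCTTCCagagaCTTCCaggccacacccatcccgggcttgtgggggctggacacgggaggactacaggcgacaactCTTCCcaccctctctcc
Eng, chr2:32646345-32646594, plus strand: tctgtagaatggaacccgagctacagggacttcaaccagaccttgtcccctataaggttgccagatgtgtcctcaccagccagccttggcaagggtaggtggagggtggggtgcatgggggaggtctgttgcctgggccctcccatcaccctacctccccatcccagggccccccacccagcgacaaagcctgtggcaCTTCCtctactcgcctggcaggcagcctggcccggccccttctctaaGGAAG
On either strand, GGAAG was present 6 times upstream of Tie1 and 2 times upstream of Eng. It was found in 6 of the 7 windows, all but that of Tek, and in 64.1% of all 32851 RefSeq windows of this length. The GATA-type motif GATAAG was found in 0 of the 7 windows and 6.55% of all windows. The E-box CANNTG was found in 6 of the 7, all but that of Flt1, and 66.2% of all windows. Both strands were searched and overlaps between motifs were allowed. These matches describe letters only.

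Libraries held 7275277 to 18409271 counts with a median of 12207444. Kat7 stood at 39.6 to 78.0 CPM (counts scaled to a common library size over all 32 libraries) in the 16 control libraries and at 0 to 1.65 CPM in the 16 knockout libraries. LSK CreER knockouts 2 and 3 did not match their sex labels. Both are knockouts of the same group, and the 2 LSK counts that use the CreER knockouts are given with and without them. Short genes were relatively high in LSK Mx1Cre knockouts 1, 3 and 4, in progenitor Mx1Cre control 1 and in progenitor Mx1Cre knockouts 3 and 4. Ly6a, which encodes the sort antigen Sca-1, averaged 91.9 CPM in LSK CreER controls, 18.5 in LSK Mx1Cre controls, 5.15 in progenitor CreER controls and 3.14 in progenitor Mx1Cre controls. Of 13 genes listed as endothelial markers, 8 averaged under 1 CPM in LSK CreER controls and 9 in LSK Mx1Cre controls, among them Cldn5, Stab2, Sox18 and Fabp4. Sox17 and Lyve1 were at 0 there. The other 5 were detected in LSK CreER controls, where Egfl7, Pecam1 and Aqp1 averaged 72.7, 95.2 and 121 CPM, Plvap 5.98 CPM and Kdr 1.38 CPM. Plvap and Aqp1 were higher in progenitor CreER controls, at 12.7 and 410 CPM. Levels of these detected genes can therefore not be read as endothelial RNA on their own. All libraries are bulk, so fewer cells of a type and less RNA per cell cannot be told apart.

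Per length, endoglin was the most abundant of the 9 transcripts in the controls of both populations. In LSK CreER controls the mean was 49.3 RPKM (CPM per kilobase of exon) for Eng, 19.1 for Tie1, 6.92 for Esam, 5.75 for Procr, 4.96 for Emcn, 4.06 for Tek, 1.86 for Robo4, 0.179 for Flt1 and 0.0809 for Cdh5. LSK Mx1Cre controls gave 36.7 RPKM for Eng, 11 for Tie1, 3.74 for Procr, 3.05 for Esam, 2.04 for Tek, 1.77 for Robo4, 1.59 for Emcn, 0.447 for Flt1 and 0.0493 for Cdh5. Cdh5 was close to undetected. It had at most 10 counts in any library and 13 counts in all over the 4 LSK CreER controls, too few for a test in any comparison.

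**Figure D1:**
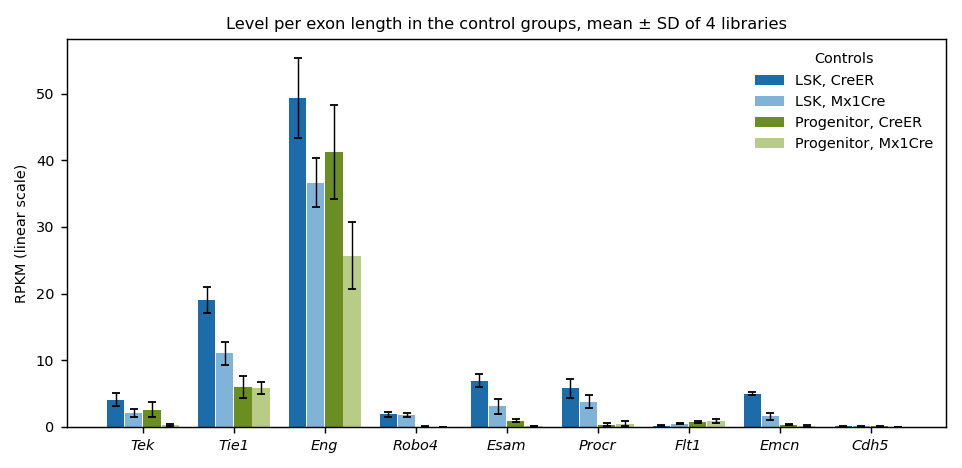
Mean level per exon length (RPKM, linear axis from 0) of each gene in the control groups of LSK and progenitor cells; bars are means and whiskers the SD of 4 libraries. Eng and Tie1 stand highest in all 4 groups, and Robo4, Esam, Procr and Emcn reach above 1 RPKM in LSK controls and stay below it in progenitor controls.

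LSK controls were set against progenitor controls of the same mice to see which of the genes mark the stem cell fraction. Robo4, Esam, Procr, Emcn and Tie1 were higher in LSK cells with both recombinases. Flt1 was lower in LSK cells with CreER. With CreER, 5 of the 8 genes tested were higher in LSK cells and 1 was lower, against 10.6% higher and 7.28% lower among all 14459 genes, 17.9% together (edgeR quasi-likelihood test, Benjamini-Hochberg adjusted p at most 0.05). With Mx1Cre, 7 of 8 were higher and 0 were lower, against 12.8% and 15.4% of all genes, 28.2% together. Robo4 and Emcn had too few counts in progenitors to be tested within them. Both entered this fit through their LSK libraries, so the filter on low counts favoured a higher level in LSK cells in advance. The counts of 5 and 7 include both genes.

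Robo4 was almost confined to LSK cells in the controls. It read 8.40, 7.74, 5.34 and 6.03 CPM in LSK CreER controls 1 to 4, and the 4 progenitor libraries of those mice held 5 counts in all. In Mx1Cre controls it read 8.39, 6.27, 6.01 and 5.47 CPM in LSK cells and 0 counts in progenitors, so that it was at least 95.6-fold higher in LSK cells against a floor of 3 counts over the progenitor group. Every LSK control was above every progenitor control. Esam read 15.5, 12.4, 12.1 and 11.3 CPM in LSK CreER controls and 2.18, 1.57, 1.73 and 1.14 CPM in the progenitors of those mice, a log2 difference of 2.94 ± 0.40 (SE). Procr was 4.19 ± 0.50 and Emcn 3.98 ± 0.54 higher in LSK cells on the same log2 scale. With Mx1Cre the log2 differences were 4.45 ± 0.51 for Esam, 3.15 ± 0.49 for Procr and 3.97 ± 0.64 for Emcn, and no LSK control overlapped a progenitor control for these genes with either recombinase.

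The TIE receptors and endoglin were less bound to the LSK fraction. Tie1 was 1.67 ± 0.22 higher on the log2 scale in LSK CreER controls and 0.92 ± 0.22 higher in LSK Mx1Cre controls than in progenitors (edgeR adjusted p = 3.1e-06 and 0.00279). Tek differed by 0.65 ± 0.46 with CreER, which did not pass the test (edgeR adjusted p = 0.385), and was 3.07 ± 0.56 higher in LSK cells with Mx1Cre (edgeR adjusted p = 0.000224). Eng differed by 0.26 ± 0.16 with CreER (edgeR adjusted p = 0.299) and was 0.51 ± 0.16 higher in LSK cells with Mx1Cre (edgeR adjusted p = 0.0195). The call for Eng was lost without LSK Mx1Cre control 2 (adjusted p = 0.0617) or progenitor Mx1Cre control 3 (adjusted p = 0.0648). Flt1 went the other way, lower by 1.88 ± 0.41 on the log2 scale in LSK CreER controls (edgeR adjusted p = 0.00169) and at -0.89 ± 0.37 with Mx1Cre (edgeR adjusted p = 0.0687). With mice as blocks and the 2 libraries of mismatched sex exchanged, the Mx1Cre difference of Flt1 passed the test (edgeR adjusted p = 0.0184). It also passed with DESeq2 (adjusted p = 0.049), with the exon-length trend removed (0.0156) and without LSK CreER knockout 1 (0.0407) or progenitor CreER knockout 3 (0.0448).

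The controls of the Mx1Cre and CreER groups themselves differed for most of these genes. In LSK cells, 5 of the 8 genes tested were lower in Mx1Cre controls and 1, Flt1, was higher, where 10% of all 14102 genes were lower and 11.7% were higher, 21.7% together. Tek averaged 9.51 ± 2.69 CPM (SD, n = 4 in each group here and below) in LSK Mx1Cre controls and 18.9 ± 4.57 CPM in LSK CreER controls. Tie1 averaged 42.7 ± 6.68 against 74.0 ± 7.49 CPM, Esam 5.65 ± 2.13 against 12.8 ± 1.82 CPM and Emcn 2.33 ± 0.761 against 7.25 ± 0.305 CPM. These 4 genes and Eng were lower with Mx1Cre, and their 4 Mx1Cre values did not overlap the 4 CreER values. The test gave log2 differences of -0.96 ± 0.32 for Tek (edgeR adjusted p = 0.0391), -0.77 ± 0.18 for Tie1 (0.00608), -0.41 ± 0.13 for Eng (0.0268), -1.15 ± 0.28 for Esam (0.00714), -1.62 ± 0.37 for Emcn (0.00493) and 1.31 ± 0.42 for Flt1 (0.0315). Robo4, at -0.05 ± 0.30, and Procr, at -0.60 ± 0.31, did not pass. Tek lost its call without CreER control 1, 2 or 3, without any 1 of the 4 Mx1Cre controls and with the labelled sex as a covariate (adjusted p = 0.0521 to 0.117). Eng lost it without CreER control 1, 2 or 4 or Mx1Cre control 3 or 4 (adjusted p = 0.0591 to 0.0935), and Flt1 without CreER control 1, 2 or 3 or Mx1Cre control 1 or 3 and with limma-voom (adjusted p = 0.0646 to 0.0999). Markers of other stages moved as well. All 6 markers of myeloid progenitors were higher in LSK Mx1Cre controls, where their summed level was 16860 to 20970 CPM against 4824 to 10900 CPM, and 7 of 12 long-term HSC markers were lower and 3 higher. Their part in the differences of the 9 genes was not tested.

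In progenitor cells, 3 of the 6 genes tested were lower in Mx1Cre controls and 0 were higher, where 10.9% and 14.3% of all 13692 genes were, 25.3% together. Tek read 18.4, 14.1, 8.98 and 6.73 CPM in progenitor CreER controls and 2.03, 0.76, 1.38 and 0.279 CPM in progenitor Mx1Cre controls. The 2 sets were well apart, and the log2 difference of -3.41 ± 0.65 (edgeR adjusted p = 0.00155) was the largest of any of the 6. Esam was lower by 2.67 ± 0.69 and Eng by 0.68 ± 0.18 on the log2 scale (edgeR adjusted p = 0.0105 and 0.0112). Megakaryocyte markers moved with them: 6 of 7 were lower, and their summed level was 34.99 to 62.49 CPM against 192.9 to 386.8 CPM. All 6 myeloid progenitor markers were higher, at a summed 34530 to 37550 CPM against 13370 to 25010 CPM. The part of either list in the lower level of Tek was not tested.

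Deletion of Hbo1 lowered most of these genes in LSK cells with Mx1Cre and raised Flt1 with both recombinases. With Mx1Cre, 5 of 8 genes tested fell, namely Tek, Tie1, Eng, Robo4 and Emcn, and Procr and Flt1 rose, where 15.9% of all genes fell and 15.2% rose, 31% together. With CreER, Emcn fell and Flt1 rose, 2 of 8 genes where 3.16% of all genes passed the test, 1.59% lower and 1.57% higher. In progenitor cells, Tie1 and Eng fell and Flt1 rose with Mx1Cre, 3 of 6 tested against 6.08% of all genes (4.49% lower, 1.59% higher), and Tie1 fell with CreER, 1 of 6 against 0.168%. The CreER count in LSK cells depended on single libraries. It ranged from 0 without knockout 2 to 5 without knockout 1, and it was 0 without knockouts 2 and 3 (Flt1 at an edgeR adjusted p of 0.123, Emcn at 0.447).

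**Figure D2:**
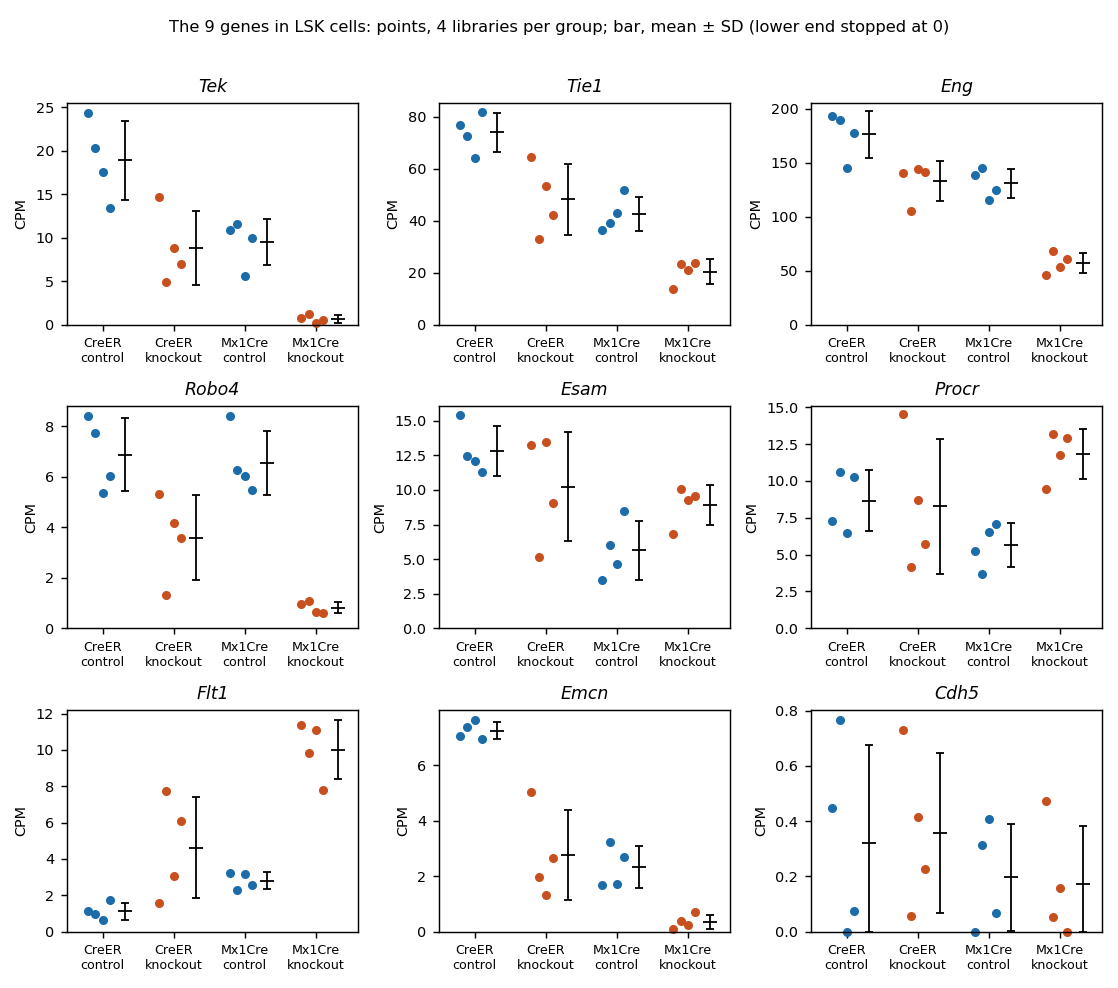
Level (CPM, linear axes from 0) of each gene in the 16 LSK libraries by group, one point per library, with the mean ± SD of 4. Tek, Tie1, Eng, Robo4 and Emcn are lower and Flt1 and Procr higher in all 4 Mx1Cre knockouts than in the Mx1Cre controls, while in the CreER groups Tek, Tie1 and Flt1 overlap.

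Tek lost most of its transcript in LSK cells after deletion with Mx1Cre. It read 10.9, 11.6, 5.61 and 9.96 CPM in Mx1Cre controls and 0.758, 1.23, 0.235 and 0.53 CPM in Mx1Cre knockouts, the latter from 40 counts in all. Every knockout was below every control by more than 4 CPM. The fitted level was 7.70% of control, a log2 change of -3.70 ± 0.42 (edgeR adjusted p = 5.21e-06), and Tek passed in all 25 alternative analyses. With CreER, Tek read 24.3, 20.3, 17.5 and 13.4 CPM in controls and 14.7, 4.87, 8.81 and 6.99 CPM in knockouts. Knockout 1 lay among the controls and the other 3 lay below all of them. That change of -1.09 ± 0.32 on the log2 scale did not pass (edgeR adjusted p = 0.072), and it passed without knockout 1 (-1.47, adjusted p = 0.0124) and without Mx1Cre knockout 2, which shares the estimate of spread (adjusted p = 0.0492). It also passed with DESeq2 (adjusted p = 0.0175), limma-voom (0.0297), the exon-length trend removed (0.0445) and the replicate block (0.0223). The Mx1Cre fall was larger than the CreER fall, by a log2 difference of -2.61 ± 0.53 (edgeR adjusted p = 0.00827; with limma-voom 0.0503).

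In progenitor cells Tek was low with Mx1Cre in controls and knockouts alike. It read 0.782, 0.0866, 0.331 and 0.298 CPM in progenitor Mx1Cre knockouts, which overlap the controls given above, and the log2 change of -1.46 ± 0.79 did not pass (edgeR adjusted p = 0.374). In progenitor CreER knockouts Tek read 13.6, 4.24, 1.63 and 4.81 CPM, so that knockout 1 again lay among the controls and the other 3 lay below them. The change there was -1.0 ± 0.56 on the log2 scale (edgeR adjusted p = 0.778). Ordered by mean over the 8 groups, Tek ran from LSK CreER controls through progenitor CreER controls, LSK Mx1Cre controls, LSK CreER knockouts, progenitor CreER knockouts, progenitor Mx1Cre controls and LSK Mx1Cre knockouts to progenitor Mx1Cre knockouts. Each neighbouring pair in that order overlapped.

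Tie1 was the one gene of the 9 that fell with Mx1Cre in LSK cells and with both recombinases in progenitors. In LSK cells it read 36.5, 39.4, 43.1 and 51.8 CPM in Mx1Cre controls and 13.6, 23.2, 21.1 and 23.9 CPM in Mx1Cre knockouts. In progenitor Mx1Cre controls it read 20.6, 18.5, 25.2 and 26.0 CPM against 3.13, 4.33, 5.29 and 4.33 CPM in knockouts. The groups were apart in both populations, more widely in progenitors. The fitted levels were 48.1% of control in LSK cells (log2 -1.06 ± 0.19, edgeR adjusted p = 0.000585) and 18.8% in progenitors (log2 -2.41 ± 0.26, edgeR adjusted p = 2.34e-05). Both passed in all 25 alternatives.

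The progenitor fall of Tie1 with Mx1Cre was larger than the LSK fall by 1.36 ± 0.32 on the log2 scale (edgeR adjusted p = 0.0192). Of the 6 genes with enough counts in both populations, 1, Tie1, differed in this way, where 2.05% of all genes did. The call was lost without LSK Mx1Cre control 1 (adjusted p = 0.0511), progenitor Mx1Cre control 4 (adjusted p = 0.0502) or progenitor Mx1Cre knockout 1 (adjusted p = 0.082), and with limma-voom (adjusted p = 0.065). With CreER, Tie1 read 77.0, 72.7, 64.3 and 82.0 CPM in LSK controls and 64.7, 33.1, 53.3 and 42.3 CPM in LSK knockouts. Knockout 1 stood just above the lowest control, and the change of -0.61 ± 0.18 did not pass (edgeR adjusted p = 0.0776). It passed without knockout 1 (adjusted p = 0.0179), with DESeq2 (0.0256), with limma-voom (0.0422), with the exon-length trend removed (0.0472) and with the replicate block (0.0477). In CreER progenitors it read 28.9, 17.1, 28.3 and 18.3 CPM in controls and 12.4, 6.08, 9.44 and 8.15 CPM in knockouts, which did not overlap. That fall to 38.6% of control passed (log2 -1.37 ± 0.24, edgeR adjusted p = 0.0303) but not without control 1 or 3 or knockout 2, 3 or 4 (adjusted p = 0.104 to 0.124). The CreER change differed between the populations for 0 of the same 6 genes (edgeR; 1, Tie1, at an unadjusted p under 0.05, and 0 with DESeq2 or limma-voom), where 0.00692% of all genes differed.

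**Figure D3:**
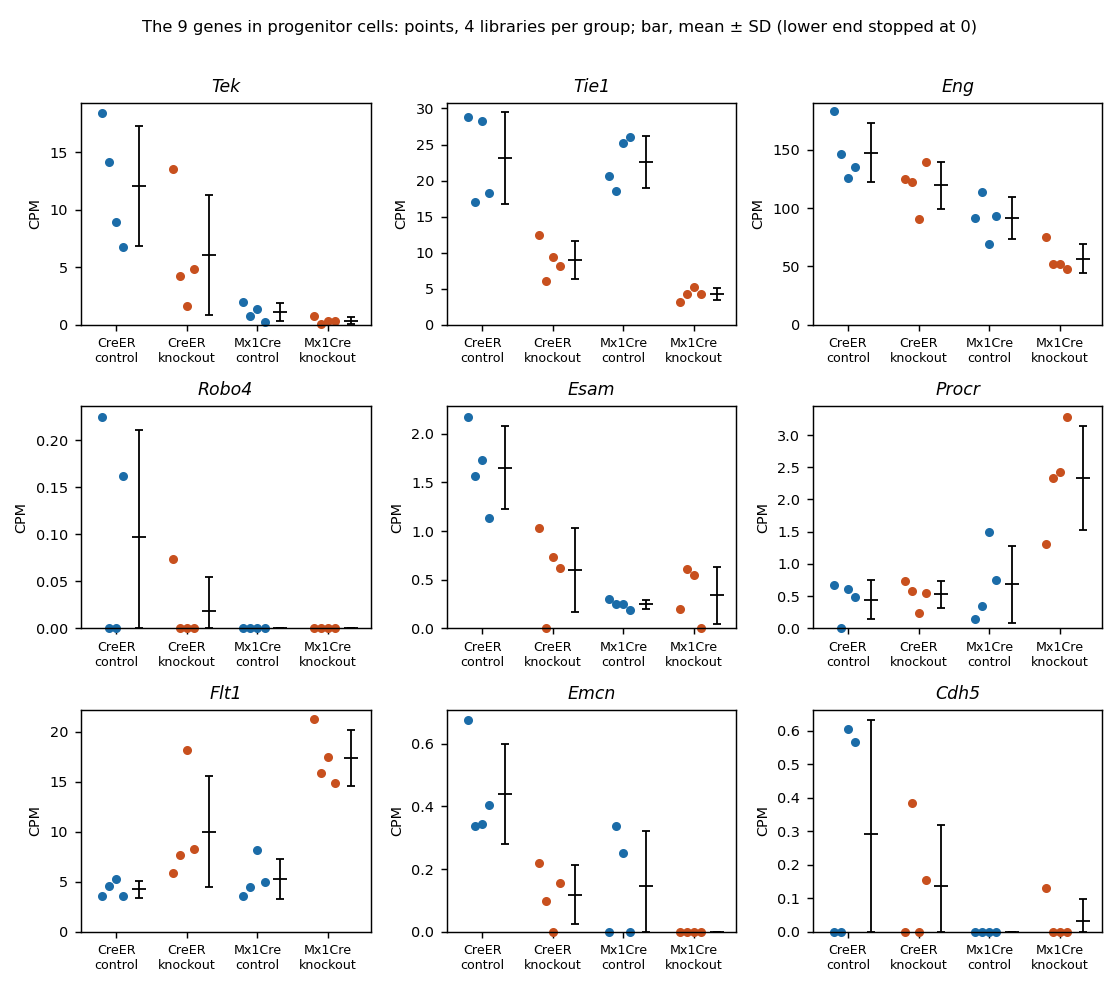
Level (CPM, linear axes from 0) of each gene in the 16 progenitor libraries by group, one point per library, with the mean ± SD of 4. Tie1 is lower in all knockouts than in their controls with both recombinases, Flt1 is higher, and Robo4, Emcn and Cdh5 stay below 1 CPM in all 16 libraries.

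Endoglin fell by a smaller factor than TIE2, from the highest level of the 9. It read 138, 145, 116 and 125 CPM in LSK Mx1Cre controls and 46.5, 67.9, 53.5 and 60.5 CPM in LSK Mx1Cre knockouts. The 2 sets were apart by more than their own ranges, and the fitted level was 43.6% of control (log2 -1.20 ± 0.13, edgeR adjusted p = 2.92e-06). In LSK CreER cells it read 193, 189, 146 and 177 CPM in controls and 141, 105, 144 and 141 CPM in knockouts. These did not overlap either, by a narrow margin, and the change of -0.40 ± 0.13 did not pass (edgeR adjusted p = 0.0876). It passed with DESeq2 (adjusted p = 0.0391), with the exon-length trend removed (adjusted p = 0.0443) and without CreER control 3 (adjusted p = 0.0406). The fall was larger with Mx1Cre by 0.80 ± 0.18 on the log2 scale (edgeR adjusted p = 0.016), a call lost without Mx1Cre knockout 3 (adjusted p = 0.0502). In progenitors with CreER, Eng averaged 147 CPM in controls and 119 CPM in knockouts, a difference that did not pass. With Mx1Cre it read 91.3, 113, 69.6 and 92.9 CPM in progenitor controls and 74.9, 52.3, 52.1 and 47.6 CPM in knockouts. Control 3 lay below knockout 1, and the fall of 0.70 ± 0.18 on the log2 scale passed (edgeR adjusted p = 0.0274) but was lost without control 2 or 4 or knockout 2, 3 or 4 (adjusted p = 0.0674 to 0.0988), and without control 1 and knockout 4 together (adjusted p = 0.0709).

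Robo4, the guidance receptor, followed Tek in LSK cells. It read 0.947, 1.07, 0.626 and 0.618 CPM in LSK Mx1Cre knockouts, all below the control values given above. The fitted level was 12.8% of control (log2 -2.97 ± 0.36, edgeR adjusted p = 1.23e-05). In LSK CreER knockouts it read 5.33, 1.30, 4.16 and 3.57 CPM, of which knockout 1 came within 0.1 CPM of the lowest control. The change of -0.94 ± 0.31 did not pass (edgeR adjusted p = 0.11) and passed without knockout 1 (-1.22, adjusted p = 0.0404). The fall was larger with Mx1Cre by 2.03 ± 0.48 on the log2 scale (edgeR adjusted p = 0.0214), a call lost without Mx1Cre control 1 (adjusted p = 0.0523), Mx1Cre knockout 3 (adjusted p = 0.0626) or Mx1Cre knockout 4 (adjusted p = 0.0533) and with limma-voom (0.0854). Tek, Eng and Robo4 were the 3 of 8 genes whose LSK change differed between recombinases, where 4.37% of all genes differed, and the count was 3 without LSK CreER knockouts 2 and 3 as well. In progenitors 0 of 6 genes differed that way (edgeR; 1, Tie1, at an unadjusted p under 0.05, and 0 with DESeq2 or limma-voom), where 0.299% of all genes did.

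Endomucin fell with both recombinases in LSK cells, from low levels. Emcn read 7.05, 7.36, 7.62 and 6.95 CPM in LSK CreER controls and 5.03, 1.98, 1.33 and 2.66 CPM in LSK CreER knockouts. All 4 knockouts were below the controls, which lay within 1 CPM of each other, and the log2 change was -1.39 ± 0.37 (edgeR adjusted p = 0.0448). The call was lost without any 1 of the 8 LSK controls, without CreER knockout 2, 3 or 4 and without Mx1Cre knockout 3 (adjusted p = 0.0508 to 0.144). In Mx1Cre cells it read 1.68, 3.21, 1.71 and 2.70 CPM in controls and 0.0947, 0.376, 0.235 and 0.707 CPM in knockouts, from 19 counts in all. These were apart, at a fitted 15.6% of control (log2 -2.68 ± 0.47, edgeR adjusted p = 0.000497). The 16 progenitor libraries held 21, 6, 6 and 0 counts of Emcn per group in the order CreER control, CreER knockout, Mx1Cre control and Mx1Cre knockout, too few for a test.

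In LSK cells, transcripts of the HSC surface markers ESAM and EPCR did not fall with those of the TIE receptors. Procr read 5.25, 3.69, 6.50 and 7.06 CPM in LSK Mx1Cre controls and 9.47, 13.2, 11.7 and 12.9 CPM in LSK Mx1Cre knockouts. All knockouts were above all controls, and the rise was 2.10-fold (log2 1.07 ± 0.31, edgeR adjusted p = 0.0141), lost without Mx1Cre control 2 (log2 0.90, adjusted p = 0.0545). Esam read 3.50, 6.04, 4.63 and 8.44 CPM in the same controls and 6.82, 10.1, 9.24 and 9.54 CPM in the same knockouts. Control 4 lay above knockout 1, and the log2 change of 0.65 ± 0.28 did not pass (edgeR adjusted p = 0.0847), though it passed without Mx1Cre control 4 (adjusted p = 0.0319) or CreER knockout 2 (adjusted p = 0.0458). With CreER, Procr read 7.28, 10.6, 6.48 and 10.2 CPM in LSK controls and 14.5, 4.13, 8.73 and 5.70 CPM in knockouts, and Esam read 13.3, 5.15, 13.5 and 9.05 CPM in knockouts. Both overlapped their controls, with knockout 1 the highest for Procr, and the log2 changes were -0.07 ± 0.30 and -0.33 ± 0.27 (edgeR adjusted p = 0.94 and 0.586).

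In progenitors both markers were scarce. Procr read 0.150, 0.338, 1.50 and 0.745 CPM in Mx1Cre controls and 1.30, 2.34, 2.42 and 3.28 CPM in Mx1Cre knockouts. Control 3 lay above knockout 1, and the log2 change of 1.83 ± 0.63 did not pass (edgeR adjusted p = 0.111) except without that control (2.49, adjusted p = 0.0452) or with DESeq2 (adjusted p = 0.0478). Esam averaged 0.248 ± 0.0469 CPM in progenitor Mx1Cre controls and 0.338 ± 0.290 CPM in knockouts, and 1.65 ± 0.429 against 0.595 ± 0.432 CPM with CreER. Neither difference passed (edgeR adjusted p = 0.866 and 0.558). With CreER, however, all Esam values in knockouts lay below those in controls, and the unadjusted edgeR p was under 0.05.

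Flt1, the VEGF receptor also known from monocytes and macrophages, rose while the TIE receptors fell. In LSK CreER controls it read 1.12, 0.956, 0.667 and 1.76 CPM, and in knockouts 1.61, 7.75, 3.08 and 6.08 CPM. Knockout 1 lay below control 4 and the other 3 knockouts lay above all controls. The fitted rise was 4.07-fold (log2 2.03 ± 0.40, edgeR adjusted p = 0.0105), and it did not pass without knockout 2 (adjusted p = 0.0508) or with limma-voom (log2 1.87, adjusted p = 0.0621). With Mx1Cre it read 3.21, 2.27, 3.17 and 2.57 CPM in LSK controls and 11.4, 9.82, 11.1 and 7.77 CPM in knockouts. These were far apart, at 3.56-fold (log2 1.83 ± 0.36, edgeR adjusted p = 0.00115), in all 25 alternatives. The changes with the 2 recombinases differed by -0.20 on the log2 scale with a 95% interval of -1.23 to 0.84.

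In progenitors Flt1 read 3.53, 4.48, 8.13 and 4.94 CPM in Mx1Cre controls and 21.3, 15.9, 17.5 and 14.9 CPM in Mx1Cre knockouts. The lowest knockout was well above the highest control, and the rise was 3.33-fold (log2 1.74 ± 0.33, edgeR adjusted p = 0.0039), again in all 25 alternatives. With CreER it read 3.53, 4.60, 5.27 and 3.57 CPM in progenitor controls and 5.87, 7.72, 18.1 and 8.31 CPM in knockouts. These did not overlap, knockout 3 stood far above the rest, and the log2 change of 1.23 ± 0.33 did not pass (edgeR adjusted p = 0.17) except with DESeq2 (adjusted p = 0.0254). Over the 8 groups Flt1 was highest in progenitor Mx1Cre knockouts and lowest in LSK CreER controls, and neither of these groups overlapped its neighbour in the order of means.

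Markers of mature blood lineages moved beside Flt1. Their summed level was 28.39 to 43.66 CPM in LSK CreER controls and 63.26 to 85.23 CPM in knockouts, and 77.5 to 121.4 CPM in LSK Mx1Cre controls and 105.9 to 139.2 CPM in knockouts. Of 6 tested with CreER, 1 rose and 0 fell, where 3.16% of all genes passed. In progenitor Mx1Cre knockouts 0 of 5 passed the test, and of 6 myeloid progenitor markers 2 fell and 0 rose. Of all genes, 6.08% passed there. Their part in the rise of Flt1 was not tested.

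**Figure D4:**
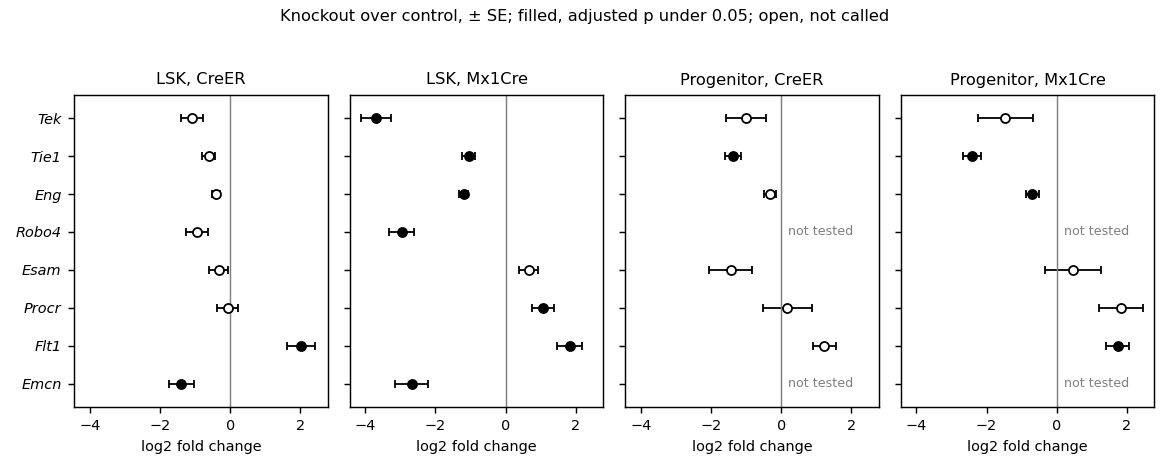
Fitted log2 change of each tested gene between knockout and control (points, log2 axis) with its SE (bars) in LSK and progenitor cells, by recombinase; filled points passed the test and open points did not. Flt1 lies above 0 and Tie1 below 0 in all 4 comparisons, and the LSK Mx1Cre changes of Tek, Robo4 and Emcn lie lowest.

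Ordered by mean over the 8 groups, the other genes fell into different patterns. Tie1 and Eng were highest in LSK CreER controls and lowest in progenitor Mx1Cre knockouts. For Tie1 the LSK Mx1Cre knockouts, at 20.5 ± 4.72 CPM, overlapped the progenitor Mx1Cre controls, at 22.6 ± 3.59 CPM. For Eng the LSK and progenitor Mx1Cre knockouts overlapped, at 57.1 ± 9.18 and 56.7 ± 12.3 CPM, and stood below all 6 other groups on average. Robo4, Esam and Procr stayed higher in every LSK group than in any progenitor group on average, knockouts included, and neighbouring LSK and progenitor groups in these orders did not overlap. Procr was the one gene highest in LSK Mx1Cre knockouts, at 11.8 ± 1.69 CPM, where it overlapped the LSK CreER controls, at 8.65 ± 2.08 CPM. For Emcn the LSK Mx1Cre knockouts, at 0.353 ± 0.262 CPM, overlapped the progenitor controls of both recombinases.

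In LSK CreER knockouts the same mouse stood nearest to the controls for several genes. Knockout 1 had the highest Tek, Tie1, Robo4 and Emcn and the lowest Flt1 of its group in LSK cells, and the highest Tek and lowest Flt1 in progenitors. Its Kat7 level of 0.511 CPM was the lowest of the 4 LSK CreER knockouts. Knockout 2 of the same group had the lowest Tek, Tie1, Eng, Robo4, Esam and Procr and the highest Flt1, and it is 1 of the 2 libraries that did not match their sex label.

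Across the 16 LSK libraries, which share 4 groups and are thus not independent, log2 CPM of Tek rose with that of Eng (Pearson r = 0.967) and Robo4 (r = 0.937), and Tie1 rose with Emcn (r = 0.948). Flt1 ran against Tek (r = -0.883), Tie1 (r = -0.903) and Emcn (r = -0.906). Esam and Procr went together only loosely (r = 0.581). Other genes were compared where their mean log2 CPM reached 1, which left 12341. The patterns most like Tek over the 16 libraries were those of Obsl1 (r = 0.984), Rusc2 (r = 0.984) and Tspan13 (r = 0.983). Those most like Tie1 were Adgrg1 (r = 0.985), Gimap1 (r = 0.984) and Angpt1 (r = 0.979), and those most like Eng were Bcl11a (r = 0.988), Golm2 (r = 0.980) and Rusc2 (r = 0.978). For Robo4 they were Armcx2 (r = 0.967), Ttpa (r = 0.962) and Hdac11 (r = 0.959), and for Emcn Plaat3 (r = 0.983), Tpm1 (r = 0.971) and Cavin1 (r = 0.965). For Flt1 they were Acsl1 (r = 0.941), Hsd11b1 (r = 0.940) and Pglyrp1 (r = 0.940). Esam and Procr had looser partners, led by Pglyrp2 (r = 0.893) and Cdkn1c (r = 0.878).

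**Figure D5:**
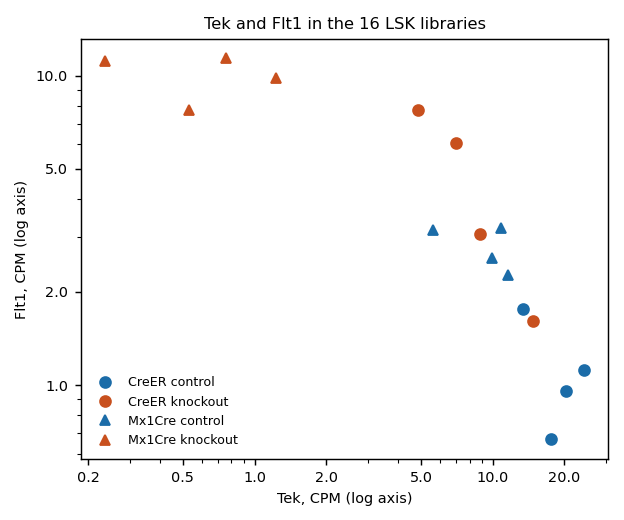
Tek (horizontal, CPM, log axis) against Flt1 (vertical, CPM, log axis) in the 16 LSK libraries, one point per library, coloured by genotype and shaped by recombinase. The 4 Mx1Cre knockouts lie at upper left, the CreER controls at lower right, and CreER knockout 1 lies beside the CreER controls.

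The ligands and partners of these receptors were read from lists of other genes of each pathway. Counts for LSK Mx1Cre knockouts in these lists stand beside 15.9% of all genes that fell and 15.2% that rose, 31% together. Angpt1, the TIE2 ligand, fell from a mean of 170.8 to 77.2 CPM in LSK Mx1Cre knockouts (log2 -1.15 ± 0.21, edgeR adjusted p = 0.000657). Tek, which encodes its receptor, and Tie1 fell there as well. With CreER the Angpt1 change was -0.59 ± 0.21 (edgeR adjusted p = 0.127). Of the 15 tested genes of angiopoietin and TIE signalling, 2 rose and 2 fell with Mx1Cre in LSK cells, a share no higher than the 31% of all genes, with a median log2 change of -0.008, beside -0.00529 over all genes. Dok2, an adaptor of TIE2, rose by 0.83 ± 0.16 (edgeR adjusted p = 0.00126). With CreER, 0 of the 15 passed.

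Among 7 tested VEGF ligands and receptors, 1 rose and 2 fell in LSK Mx1Cre knockouts. Nrp1, a co-receptor of VEGF, rose with Flt1 from 25.0 to 62.3 CPM (log2 1.32 ± 0.15, edgeR adjusted p = 5.87e-06) and with CreER from 10.7 to 26.1 CPM (log2 1.28 ± 0.16, edgeR adjusted p = 0.000398). Kdr, which encodes VEGFR2, fell from 0.937 to 0.115 CPM and Vegfc fell by 0.89 ± 0.28 on the log2 scale (edgeR adjusted p = 0.00287 and 0.0223). In the 15 tested genes of endoglin and BMP9 signalling, 2 rose and 3 fell, a share near the 31% of all genes. Tgfbr3, which encodes the related co-receptor betaglycan, fell from 27.9 to 4.48 CPM with Mx1Cre (log2 -2.64 ± 0.22, edgeR adjusted p = 1.45e-07) and from 56.1 to 32.4 CPM with CreER (log2 -0.78, edgeR adjusted p = 0.0293). Robo3, a relative of Robo4, fell from 8.44 to 1.21 CPM in LSK Mx1Cre knockouts (log2 -2.78 ± 0.35, edgeR adjusted p = 1.9e-05) and rose from 0.141 to 1.11 CPM in progenitor Mx1Cre knockouts (log2 2.96 ± 0.57, edgeR adjusted p = 0.00417).

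Of 11 tested adhesion and junction genes, 6 fell and 0 rose in LSK Mx1Cre knockouts, with a median of -0.68. Among them Cdh1, which encodes E-cadherin, fell from 8.76 to 1.01 CPM (log2 -3.13 ± 0.46), and the junction linker Jup fell by 1.97 ± 0.25. In the protein C pathway 2 of 5 tested genes fell and 0 rose. Pros1, which encodes the cofactor protein S, fell from 7.21 to 0.214 CPM with Mx1Cre (log2 -4.96 ± 0.41, edgeR adjusted p = 1.79e-07) and from 7.63 to 3.06 CPM with CreER (log2 -1.30 ± 0.30, edgeR adjusted p = 0.0241) in LSK cells, where the receptor gene Procr rose or did not pass. The thrombin receptor gene F2r fell from 50.4 to 14.3 CPM with Mx1Cre (log2 -1.82 ± 0.21). Of the 5 tested sialomucins other than Emcn, 1, Selplg, fell (log2 -0.48 ± 0.08) and 0 rose. Of 17 tested transcription factors shared by endothelium and HSCs, 11 fell and 2 rose with Mx1Cre, with a median of -0.59. With CreER, 4 of them fell and 0 rose, where 1.59% of all genes were lower and 1.57% higher. The CreER median was -0.25, beside 0.0116 over all genes. Mecom (log2 -2.07), Hoxa9 (-1.61), Gata2 (-1.59) and Runx1 (-0.82) were among those that fell with Mx1Cre. In progenitor Mx1Cre knockouts 2 of 16 tested factors fell and 0 rose, where 4.49% of all genes fell and 1.59% rose.

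Markers of other cell types moved in the same LSK comparison, where 15.9% of all genes fell and 15.2% rose, 31% together. In LSK Mx1Cre knockouts 4 of 5 erythroid markers fell, with summed levels of 74.09 to 326.1 CPM in controls and 21.14 to 38.33 CPM in knockouts. Of 8 megakaryocyte markers, 5 fell and 1 rose (summed level 212.3 to 293.5 against 107.1 to 130.5 CPM), and of 12 long-term HSC markers 5 fell and 0 rose (296.7 to 357.9 against 226.1 to 282 CPM). Of 7 markers of multipotent and lymphoid-primed progenitors, 4 fell (Flt3, Dntt, Il7r and Satb1) and 0 rose, with a summed level of 947.9 to 1125 CPM in controls and 665.4 to 1018 CPM in knockouts. The sort marker Kit fell by 0.65 ± 0.10 on the log2 scale (edgeR adjusted p = 0.000193). Of 13 endothelial markers, 6 could be tested, of which 2, Aqp1 and Kdr, fell and 1, Sox18, rose. The summed level of the 13 was 209 to 326.5 CPM in controls and 166.8 to 197.9 CPM in knockouts. Most of that sum came from Aqp1, Pecam1 and Egfl7. Within it, Aqp1 averaged 81.7 CPM in controls and 17.6 CPM in knockouts, and Sox18 0.188 and 1.41 CPM. Egfl7 (45.5 and 47.8 CPM), Plvap (4.62 and 4.62 CPM) and Pecam1 (131 and 111 CPM) did not pass. The part of these cell type markers in the falls of Tek, Tie1, Eng, Robo4 and Emcn was not tested. In LSK CreER knockouts 2 megakaryocyte markers fell and 1 rose (425.7 to 506.9 against 266.2 to 309.5 CPM), and 1 of 12 long-term HSC markers fell. Of all genes, 3.16% passed there. In progenitor Mx1Cre knockouts, where Tie1 and Eng fell, 2 of 7 megakaryocyte markers rose and 0 fell, against 1.59% and 4.49% of all genes.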

How the data were processed

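The submitters deposited one table of read counts per gene for all 32 libraries. TruSeq libraries were made from 50 ng of RNA and sequenced as pairs of 80-base reads, per the labels' protocols. The submitters' processing notes name featureCounts and mm10. Neither an aligner nor a strand setting is given in the sources used here. Column names were matched to sample labels, and groups were taken from the labels. The counts as deposited were tested with the quasi-likelihood test of edgeR 4.0.16 (R 4.3.3) after TMM scaling and filterByExpr (minimum count 10, minimum total 15), in 1 fit of 16 libraries per population and 1 fit of all 32 for comparisons between populations. P-values were adjusted over all genes of a comparison (Benjamini-Hochberg), with a threshold of 0.05, in 12 comparisons. The fits were tested on simulated counts. CPM values were scaled by TMM over all 32 libraries, and RPKM divides them by the exon length in the table. For likeness between genes, log2 CPM took a prior count of 2.

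LSK and progenitor libraries of the same number come from the same mouse by the labels, and same-mouse deviations from the group means correlated at -0.0939 to 0.427, the own partner being highest for 12 of 16. The lowest values, -0.0939 and -0.0634, were those of CreER knockouts 2 and 3, whose LSK libraries did not match their sex labels. The labelled mouse of these LSK libraries is therefore uncertain. Control and knockout libraries come from different mice. Depth limits genes under about 1 CPM, where a library holds few counts. The 9 genes and the lists of other genes were chosen with earlier results of these data known. All 9 genes are named, and from each pathway list up to 4 genes with the lowest p in the LSK Mx1Cre comparison could be. Alternatives were DESeq2 1.42.0 (test, and size factors alone), limma 3.58.1 with voom, no filter, a filter of 1 CPM in 4 libraries, removal of the exon-length trend, sex as a covariate, replicate blocks, and leaving out libraries. The alternative without progenitor Mx1Cre control 1 and knockout 4 was chosen after seeing the data.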

Additional observations from a re-analysis of the deposited data

Results flagged for a closer look

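In LSK CreER knockouts, Eng in knockout 2 stood far from the rest of its group at 105 CPM, where the other 3 libraries read 141 to 144 CPM. This library did not match its sex label. Robo4 was present in 1 progenitor CreER knockout, number 1, at 0.0734 CPM, from a single count, and at 0 in the other 3. Cdh5 was present in 1 progenitor Mx1Cre knockout, number 1, at 0.13 CPM and at 0 in the other 3. Such an isolated library was found in 3 of 68 groups of values for the 9 genes, and chance gives about 1 in 20 for continuous values. That rate does not apply to Robo4 and Cdh5 here, since any count is flagged where the other 3 libraries are at 0.

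The LSK change on deletion differed between the recombinases for Tek, by -2.61 on the log2 scale (Mx1Cre minus CreER), for Eng, by -0.80, and for Robo4, by -2.03. The Mx1Cre change of Tie1 differed between populations by 1.36 on the log2 scale (LSK minus progenitor). The differences were tested as interaction terms, and the CreER and Mx1Cre groups also differ in inducing agent and mice, so these cannot be told apart.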

How the results depend on the processing

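Over the alternatives, 337 of 368 counts of called genes stayed within 1.5 times the count reported. For single genes, 1738 settings kept direction and call, 59 lost the call, 26 gained it and 16 changed sign. The cause of these changes was not tested. The LSK CreER count of 2 became 5 with DESeq2 or with the exon-length trend removed, 4 with the replicate block and 0 without knockouts 2 and 3, and leaving out single libraries gave 0 to 5. The LSK count of 3 for the difference between recombinases became 1 with limma-voom and 1 to 4 on leaving out single libraries. Leaving out single libraries gave 6 to 8 genes for LSK Mx1Cre, 3 to 6 for LSK controls, 0 to 1 for progenitor CreER, 2 to 4 for progenitor Mx1Cre, 6 to 8 for LSK against progenitor Mx1Cre controls and 0 to 1 for the population difference of the Mx1Cre change. The progenitor CreER count of 1 became 2 with DESeq2, and the population difference of the Mx1Cre change, 1 gene, became 0 with limma-voom.

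Every change of sign was in a difference that did not pass the test. Robo4 between LSK controls was 0.00063 with sex as a covariate and ran from -0.21 to 0.062 on leaving out single libraries. Procr with CreER in LSK cells was 0.22 without knockouts 2 and 3 and ran from -0.51 to 0.15. Tie1 between progenitor controls was 0.058 with the length trend removed and ran from -0.16 to 0.084. Procr in progenitors ran from -0.18 to 0.43 with CreER and from -0.19 to 0.82 between controls. As a replicate block, control and knockout numbers name different mice, whose deviations correlated at -0.279 to 0.434, the own number being highest for 7 of 16. The block changed 1 more call, that of Esam with Mx1Cre in LSK cells (0.70, edgeR adjusted p = 0.0382). With the mouse as a block between populations no call of these genes changed unless LSK CreER knockouts 2 and 3 were exchanged. Depth limits Cdh5 in all groups and Robo4 and Emcn in progenitors.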
